A study of Mus musculus with 2 samples.

Results

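Denervation and neuromuscular junction genes are described here in satellite cells, the stem cells of skeletal muscle, sorted before and after muscle injury. The group holds 8 genes, picked by symbol: Chrna1, Chrnb1, Chrnd and Chrng, which encode subunits of the muscle acetylcholine receptor, Musk, Ncam1, Runx1 and Gadd45a. All 8 were found in both count matrices, among 32285 features. The study compared QSCs, quiescent satellite cells from the uninjured tibialis anterior (TA) muscle, with ASCs, activated satellite cells from TA muscle taken 1.5 days after an injection of cardiotoxin (CTX), a snake venom toxin that destroys muscle fibres. All animals were 8 weeks old and carried the same alleles, Pax7 CreERT2/+;Rosa26 mTmG/+. In such animals a tamoxifen-dependent Cre expressed from the Pax7 gene switches a membrane reporter from red to green fluorescence. By the study's description, each library was made from cells sorted from a pool of several mice, so the spread between animals cannot be seen. The tamoxifen schedule of these animals is not given in the sources used here. With a single library for each condition, a difference between conditions cannot be told apart from one between 2 libraries, and no difference given here has a replicate check.

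The acetylcholine receptor of muscle is a ring of subunits that opens a cation channel when the motor nerve releases its transmitter. The gamma subunit, from Chrng, belongs to the embryonic receptor, which returns after denervation, and is replaced in innervated adult fibres by the epsilon subunit, from Chrne. Agrin released by the nerve acts through Lrp4 on the receptor tyrosine kinase MuSK, which with Dok7 and rapsyn clusters the receptors under the nerve ending. In innervated fibres the subunit genes are transcribed mainly by the nuclei beneath the synapse, and after denervation along the whole fibre, where myogenin (Myog) and related basic helix-loop-helix factors, which bind E-boxes, take part. Ncam1 encodes a cell adhesion molecule of the junction that is also carried by satellite cells, Runx1 a transcription factor that is induced in denervated muscle, and Gadd45a a nuclear protein of growth arrest and stress responses that is also induced by denervation.

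The sequences before the RefSeq transcription start of 3 members are shown because these are the members whose windows hold the letters CAGCTG, a form of the E-box CANNTG that reads the same on both strands. Windows of 250 bases were taken from RefSeq for the GRCm38.p6 build and are written 5′ to 3′ on the strand of the gene, with CAGCTG in capitals. They lie at chr2:73580339-73580588 on the minus strand for Chrna1, chr1:87205561-87205810 on the plus strand for Chrng and chr4:58285712-58285961 on the plus strand for Musk. The window of Chrng lies inside the gene as GENCODE draws it, downstream of the GENCODE gene start, so the 2 sources differ on where Chrng begins.
Chrna1: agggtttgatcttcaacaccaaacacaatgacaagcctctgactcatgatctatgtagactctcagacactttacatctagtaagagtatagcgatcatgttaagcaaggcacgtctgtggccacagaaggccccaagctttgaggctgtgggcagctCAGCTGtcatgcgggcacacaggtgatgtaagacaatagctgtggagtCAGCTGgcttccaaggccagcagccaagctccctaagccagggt
Chrng: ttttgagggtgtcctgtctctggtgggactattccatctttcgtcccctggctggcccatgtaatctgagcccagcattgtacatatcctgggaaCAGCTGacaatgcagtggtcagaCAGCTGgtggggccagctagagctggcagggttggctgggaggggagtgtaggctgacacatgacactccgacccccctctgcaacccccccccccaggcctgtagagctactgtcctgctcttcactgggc
Musk: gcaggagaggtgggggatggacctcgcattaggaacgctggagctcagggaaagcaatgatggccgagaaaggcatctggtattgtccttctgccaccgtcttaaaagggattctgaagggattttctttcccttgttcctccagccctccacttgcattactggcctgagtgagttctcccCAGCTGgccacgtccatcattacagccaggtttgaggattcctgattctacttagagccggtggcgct

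Chrna1 and Chrng each held 2 copies of CAGCTG. Their first bases lay 92 and 44 bases before the RefSeq start of Chrna1, and 155 and 132 bases before that of Chrng. Musk held 1 copy, 68 bases before its start. No copy was found in the windows of Chrnb1, Gadd45a and Runx1, for which 2 starts are listed. Of 32851 promoter windows of this length, 13.0% held at least 1 copy and 1.26% at least 2, while 66.2% held at least 1 CANNTG of any kind. Windows matched 6 of the 8 members, and Chrnd and Ncam1 were not among them. A match of letters is a description of the window and does not show a bound site.

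By the GENCODE M21 annotation of GRCm38, Chrna1 (ENSMUSG00000027107) lies on chromosome 2 from 73563215 to 73580338, Chrnb1 (ENSMUSG00000041189) on chromosome 11 from 69784036 to 69795943, and Musk (ENSMUSG00000057280) on chromosome 4 from 58285960 to 58374303. Chrnd (ENSMUSG00000026251), from 87190607 to 87200070, and Chrng (ENSMUSG00000026253), from 87204657 to 87212694, are neighbours on the plus strand of chromosome 1 and stand 4.586 kb apart. Ncam1 (ENSMUSG00000039542) lies on chromosome 9 from 49502136 to 49798925, Runx1 (ENSMUSG00000022952) on chromosome 16 from 92601466 to 92826149, and Gadd45a (ENSMUSG00000036390) on chromosome 6 from 67035096 to 67037457. The last 3 overlap annotated transcripts on the opposite strand (Gm11149, Gm26626 and E230016M11Rik), and the handling of strand is not given in the sources used here, so their counts are less certain than those of the other 5.

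Each value below is a number of unique molecular identifiers (UMIs), the tags that mark single captured transcripts, or that number per 1000000 UMIs of the same group of barcodes (CPM). Summed UMIs cannot tell fewer cells of a type from less RNA per cell. Barcodes with at least 500 genes and at most 10% mitochondrial UMIs were kept: 516 of 766 in the QSC library, with 1162091 UMIs and a median of 2155, and 1468 of 1650 in the ASC library, with 8895815 UMIs and a median of 3502. Intervals in parentheses are exact 95% intervals and cover counting error only. The kept barcodes fell into 3 classes. Contractile-high barcodes took at least 5% of their UMIs from 10 fibre genes and made up 20.2% of the QSC library (104 barcodes) and 63.8% of the ASC library (936). The 10 markers listed for quiescent satellite cells had a median of 0 UMIs per contractile-high barcode in both libraries. The contractile-low QSC and ASC cells had medians of 11 and 12 UMIs, which are not scaled to their different depths. Once scaled, the sum of these markers over contractile-low cells fell from 5613 CPM for QSCs to 1125 CPM for ASCs. Clusters that carried the markers of macrophages and monocytes, neutrophils, fibroblasts or endothelial cells held 42 and 115 barcodes. The contractile-low muscle cells were the rest, 370 QSC barcodes with a median of 2221.5 UMIs and 417 ASC barcodes with a median of 8407. Of these, 238 QSC cells lay in cluster 2 of the merged libraries, whereas the ASC cells lay mainly in clusters 1 (240 cells), 4 (101) and 9 (45), so the class holds different clusters in the 2 libraries. The classes rest on a cut of a graded share: no QSC barcode and 26 of 1353 ASC muscle barcodes stood between 4% and 6%, and 51 of 474 and 282 stood between 2% and 10%. Only 2 kept barcodes occurred in both libraries. In contractile-low cells Pax7 stood at 214 CPM (QSC) and 29.7 CPM (ASC), and Myod1 at 149 and 416 CPM. The contractile-high barcodes carry the same label, but Pax7 was counted only 2 and 6 times in them (9.32 and 2.01 CPM). Those of the ASC library did hold Myod1 at 167 CPM (499 UMIs) and Myog at 136 CPM (406 UMIs), above the 18.3 and 53.2 CPM of the ASC barcodes with macrophage and monocyte markers.

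Over all kept barcodes, 3 receptor subunit genes were higher in the ASC library by at least 2-fold (Chrna1, Chrnd and Chrng), and Musk and Gadd45a were lower by at least 2-fold. Chrnb1, Ncam1 and Runx1 were lower by less than that. Of 11189 genes with at least 20 UMIs over both libraries, 16.0% were at least 2-fold higher and 23.0% at least 2-fold lower, against 3 and 2 of the 8 members. The median log2 ratio of the members was -0.85, with Chrnd taken against 3 QSC counts, and that of all genes tested was -0.10. The counts in themselves are thus no result about the members, and the values of single genes follow.

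The receptor subunits did not move together. Chrna1, the subunit that carries the main part of the acetylcholine binding site, had 74 UMIs in the QSC library, or 63.7 CPM (50.001 to 79.9), while the ASC library had 1357, or 153 CPM (145 to 161). Its log2 ratio was 1.26 (0.92 to 1.62), and the intervals of the levels did not overlap. Chrnb1, the beta subunit, stood at 61.1 CPM (47.7 to 77.1) on 71 UMIs and 35.5 CPM (31.7 to 39.7) on 316 UMIs, a log2 ratio of -0.78 (-1.16 to -0.39). Ratios of these 2 subunits had opposite signs and intervals that did not meet. Chrnd, the delta subunit, had no UMI in the QSC library, which allows up to 2.58 CPM at 3 counts, and 107 in that of the ASCs, or 12.03 CPM (9.86 to 14.5). Against 3 QSC counts it was 4.66-fold higher, and the lower limit of its log2 ratio was 1.90. Chrng, the gamma subunit, was counted once among the QSCs and 42 times among the ASCs, at 0.861 and 4.72 CPM. Its log2 ratio was 2.46, with an interval (-0.10 to 7.79) that includes 0. Without the 5% of barcodes with the most UMIs Chrng was short of 2-fold, at 0.59, and Chrna1 stood at 0.99. With every cell given the same weight Chrna1 stood at 0.36 over all kept barcodes, of which 63.8% were contractile-high in the ASC library.

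The adult epsilon subunit gene, Chrne, was counted 0 times among the QSCs and 2 times among the ASCs, which is under the limit that 3 counts set, and no fold is given. Levels of different genes are not compared, since counts from the 3′ end depend on each transcript's end.

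Musk showed the largest ratio towards the QSC library among the members. It had 32 UMIs there, 27.5 CPM (18.8 to 38.9), and 40 among the ASCs, 4.50 CPM (3.21 to 6.12), a log2 ratio of -2.61 (-3.32 to -1.90). Gadd45a stood at 275 CPM (246 to 307) on 320 UMIs and 129 CPM (121 to 137) on 1146, a log2 ratio of -1.10 (-1.28 to -0.91). Ncam1 stood at 158 CPM (136 to 183) and 83.6 CPM (77.7 to 89.9), a log2 ratio of -0.92 (-1.16 to -0.68). Runx1 stood at 126 CPM (106 to 148) and 66.0 CPM (60.8 to 71.5), a log2 ratio of -0.93 (-1.19 to -0.66). For all 4 genes the intervals of the 2 levels were apart.

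These ratios mix classes of barcodes that the 2 libraries hold in different shares, so the classes were compared separately. The plot of levels by class shows that most members were carried by the contractile-low muscle cells of both libraries.

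**Figure D1:**
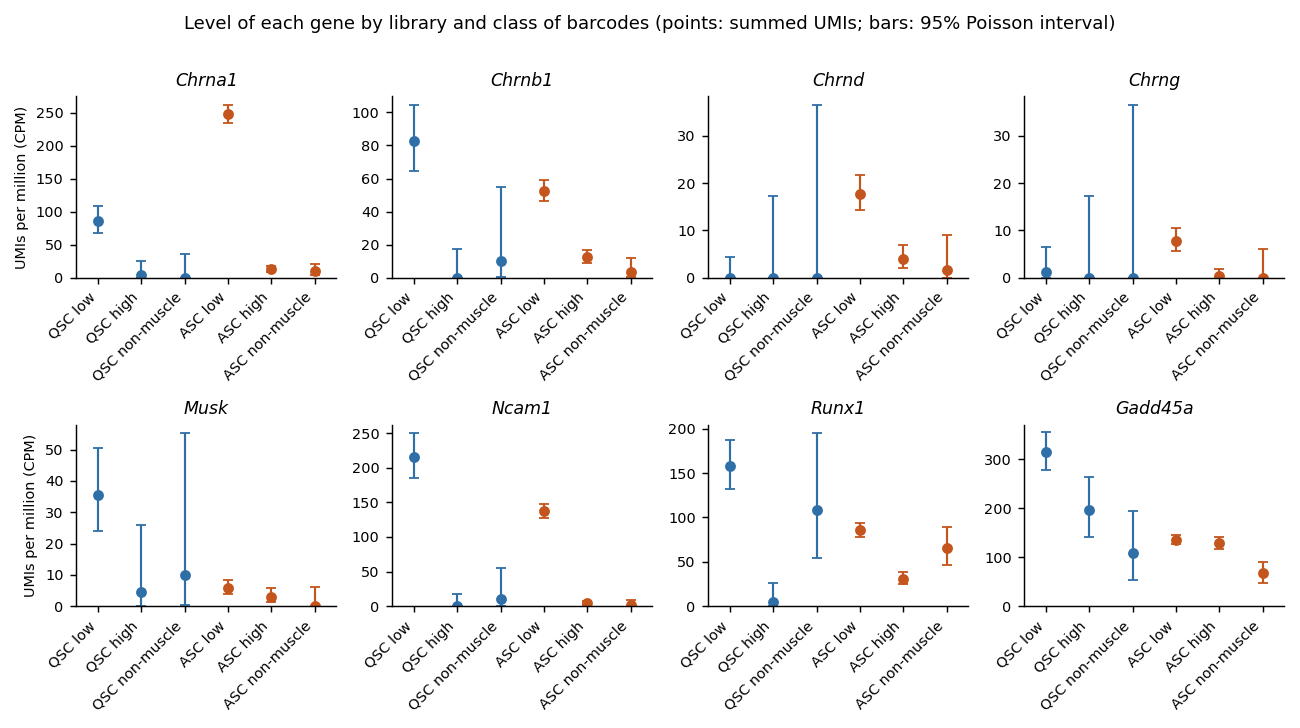
Level of each member in UMIs per 1000000 (y axis, CPM, one scale per gene) in contractile-low muscle cells (low), contractile-high barcodes (high) and non-muscle barcodes of the QSC library (blue) and the ASC library (orange), with 95% Poisson intervals. Chrna1 was highest in the ASC contractile-low cells at 248 CPM, Musk in the QSC contractile-low cells at 35.4 CPM, and Gadd45a was also present in contractile-high barcodes at 196 and 129 CPM.

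Within contractile-low muscle cells Chrna1 went from 73 UMIs, 86.2 CPM (67.6 to 108), among QSCs to 1313 UMIs, 248 CPM (235 to 262), among ASCs, a log2 ratio of 1.52 (1.18 to 1.88). Chrnd went from 0 to 94 UMIs, from at most 3.54 CPM at 3 counts to 17.8 CPM (14.4 to 21.7). It was 5.01-fold higher against 3 QSC counts, with a lower limit of 2.00 for its log2 ratio. Chrng went from 1 to 41 UMIs, a log2 ratio of 2.71 (0.15 to 8.05). Chrnb1 was at 82.7 CPM (64.5 to 104) and 52.3 CPM (46.3 to 58.9), a log2 ratio of -0.66 (-1.04 to -0.26). Again the alpha, delta and gamma subunits were higher in the ASC library and the beta subunit lower. Chrna1 stood between 1.44 and 1.85 with equal weight per cell, without the deepest barcodes and under both other scalings. Chrnb1 ranged from -0.85 to -0.34 over the alternative settings, and the shares of cells given below set no order for it. At this restriction 3 members were at least 2-fold higher, against 18.5% of 9968 genes tested, and 2 at least 2-fold lower, against 22.6%.

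Musk was again the member with the lowest ratio, with 30 QSC UMIs at 35.4 CPM (23.9 to 50.6) and 31 ASC UMIs at 5.86 CPM (3.98 to 8.31), a log2 ratio of -2.60 (-3.37 to -1.82). Gadd45a was at 315 CPM (279 to 356) and 136 CPM (126 to 146), a log2 ratio of -1.21 (-1.42 to -1.01). Ncam1 was at 216 CPM (186 to 250) and 138 CPM (128 to 148), a log2 ratio of -0.65 (-0.88 to -0.41), and Runx1 at 158 CPM (133 to 187) and 85.8 CPM (78.1 to 94.0), a log2 ratio of -0.88 (-1.17 to -0.60). Genes with at least 20 UMIs in each group had, at their median, a log2 ratio of -0.26, so relative to it Ncam1 stood at -0.39, Chrnb1 at -0.40, Runx1 at -0.62, Gadd45a at -0.95, Musk at -2.34 and Chrna1 at 1.79. Scaling by TMM, which adds 0.32 to every ratio here, or by median-of-ratios put Gadd45a at -0.90 and -0.89, equal weight per cell at -0.51, and leaving out the 5% deepest barcodes at -0.57. Musk stood at -2.13 or lower under the same 4 settings and was then the single member lower by 2-fold. Within the same cells the 12 markers listed for macrophages and monocytes summed to 73.2 CPM in QSCs (8 detected) and 157 CPM in ASCs (12 detected), those of fibroblasts to 4140 and 964 CPM and those of endothelial cells to 47.2 and 10.6 CPM, and the median mitochondrial share was 4.89% and 2.30%. Their part in the ratios of the members was not tested.

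**Figure D2:**
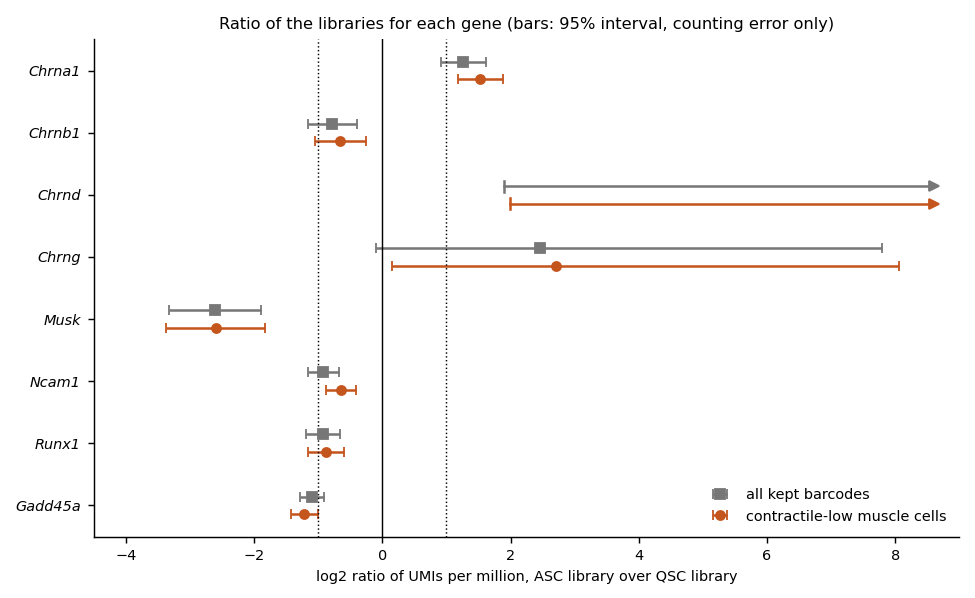
Log2 ratio of UMIs per 1000000, ASC library over QSC library (x axis), for each member over all kept barcodes (grey squares) and within contractile-low muscle cells (orange circles), with exact 95% intervals and dotted lines at 2-fold. Chrna1 lies at 1.26 and 1.52, Musk at -2.61 and -2.60, and Chrnd, with no QSC UMI, is drawn as an arrow from the lower limit of its interval.

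Because the contractile-low cells differed in depth, each was thinned to 1200 UMIs before the share of cells holding a gene was taken, which left out 4 QSC and 5 ASC cells. Chrna1 was then found in 9.56% of QSC cells (35 of 366, 6.75 to 13.05) and 18.7% of ASC cells (77 of 412, 15.04 to 22.8). Musk was found in 4.37% (2.52 to 7.002) and 0.728% (0.15 to 2.11). Both pairs of intervals were apart at this depth, in the directions of the CPM. At 2000 UMIs per cell, which left out 130 QSC and 20 ASC cells, Chrna1 was again apart, at 14.2% (10.01 to 19.2) and 33.5% (28.9 to 38.4), but the intervals of Musk overlapped, at 6.67% (3.86 to 10.6) and 2.52% (1.21 to 4.58). Without thinning the shares were 15.1% and 64.3% for Chrna1, and 6.49% and 6.95% for Musk.

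At 1200 UMIs the other shares overlapped between the libraries. Ncam1 was found in 22.1% and 15.5%, Runx1 in 17.5% and 15.05%, Gadd45a in 24.3% and 19.4% and Chrnb1 in 9.84% and 10.2%. At 2000 UMIs the intervals of Ncam1 were apart, at 34.2% (28.2 to 40.5) and 20.9% (17.01 to 25.2), as were those of Gadd45a, at 35.8% (29.8 to 42.3) and 24.2% (20.05 to 28.7), while Runx1, at 26.3% and 19.1%, and Chrnb1, at 16.3% and 11.6%, overlapped. No order is read for Chrnb1, whose share went against its CPM at 1200 UMIs and with it at 2000. At 1200 UMIs Chrnd was found in 0 of 366 QSC cells, which allows a share of up to 0.820% at 3 cells, and in 1.46% of ASC cells (0.54 to 3.14). Chrng was found in 0 of 366 and 0.728% (0.15 to 2.11). At this depth a difference in the share of cells was not detectable for Chrnd and Chrng.

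Free RNA can place UMIs in barcodes that do not express a gene, and ASC macrophage/monocyte-like barcodes (median 6382 UMIs, against 8407 in contractile-low muscle cells) gave its level for the muscle genes. After thinning, 0 of 83 of them had a UMI of Chrna1, Chrnd, Chrng, Musk or Ncam1, which allows a share of up to 3.61% at 3 barcodes. Chrnb1 was found in 2.41% (0.29 to 8.43), and Runx1 and Gadd45a, genes that immune cells also use, in 6.02% and 7.23%. The ASC shares of Chrna1 and Ncam1 stood above that limit. Those of Chrnd, Chrng and Musk lay below it, so at this depth the share did not separate them from background, and the intervals of Chrnb1 overlapped. By summed UMIs, the level in these barcodes was 9.17 CPM (2.98 to 21.4) for Chrna1, 1.83 CPM (0.05 to 10.2) for Chrnd and 3.67 CPM (0.44 to 13.3) for Chrnb1, each apart from its level in contractile-low ASC cells. Chrng and Musk had 0 UMIs there, with intervals that reach 6.77 CPM. In contractile-low ASC cells Chrng, at 7.75 CPM (5.56 to 10.5), and Musk, at 5.86 CPM (3.98 to 8.31), overlapped these intervals. Neither gene could be told apart from background there. The QSC library had 12 such barcodes after thinning, too few to set a useful limit.

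**Figure D3:**
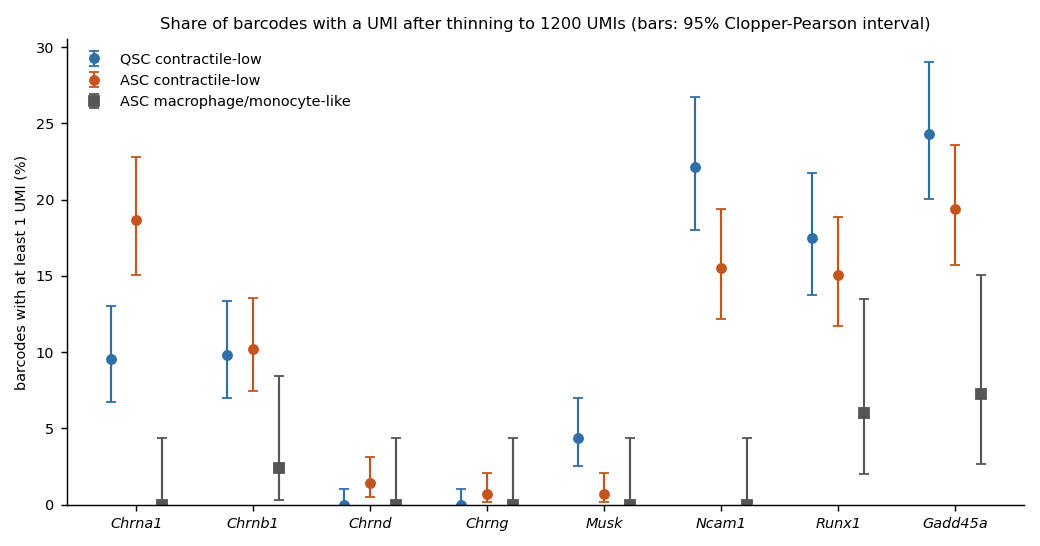
Share of barcodes with at least 1 UMI of each member (y axis, percent) after thinning every barcode to 1200 UMIs, in contractile-low muscle cells of the QSC library (blue) and the ASC library (orange) and in ASC macrophage/monocyte-like barcodes (grey), with 95% Clopper-Pearson intervals. At this depth the libraries are apart for Chrna1 (9.56% and 18.7%) and Musk (4.37% and 0.728%), and the intervals of the other 6 members overlap. At 2000 UMIs, not drawn, Musk overlaps and Ncam1 and Gadd45a are apart.

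The contractile-high barcodes carry fibre transcripts, the compartment in which the adult junction genes are used. In the ASC library 6 of the 8 members were at least 2-fold lower in them than in contractile-low cells and none was 2-fold higher, where 45.3% of 10195 genes tested were lower and 15.5% higher by that much. Ncam1 had the lowest ratio, with 13 UMIs, 4.35 CPM (2.32 to 7.44), a log2 ratio of -4.99 (-5.90 to -4.20). Chrna1 had 38 UMIs, 12.7 CPM (8.996 to 17.4), a log2 ratio of -4.29 (-4.79 to -3.82), and Chrng had 1 UMI. Chrnb1 stood at 12.4 CPM (8.71 to 17.1), Chrnd at 4.01 CPM (2.07 to 7.01) and Runx1 at 31.1 CPM (25.1 to 38.1), with log2 ratios of -2.08, -2.15 and -1.46. The intervals of all 4 receptor subunits, Musk and Ncam1 overlapped those of the macrophage/monocyte-like barcodes, and these levels are not read as expression. Musk, at 3.01 CPM (1.38 to 5.72), had a log2 ratio of -0.96 (-2.22 to 0.15).

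Gadd45a was found in both classes. It stood at 129 CPM (116 to 142) in contractile-high ASC barcodes on 385 UMIs, and its log2 ratio to the contractile-low cells was -0.08 (-0.26 to 0.10). The sign of that ratio depended on the scaling, with 0.36 under TMM and 0.50 under median-of-ratios. Its level was above the 51.4 CPM (34.1 to 74.2) of the macrophage/monocyte-like barcodes. In the contractile-high QSC barcodes it stood at 196 CPM (141 to 265) on 42 UMIs, while Chrna1, Musk and Runx1 had 1 UMI each and Chrnb1, Chrnd, Chrng and Ncam1 none, which allows up to 14.0 CPM at 3 counts. Between the libraries, Gadd45a was lower in contractile-high ASC barcodes by a log2 ratio of -0.60 (-1.07 to -0.11). Runx1 went the other way there, counted once among QSCs and 93 times among ASCs, with a log2 ratio of 2.74 (0.22 to 8.06). Of the 4 members with at least 20 UMIs over both groups, Runx1 and Chrna1 were 2-fold higher by their ratios, each on 1 QSC UMI, and none was 2-fold lower, where 18.9% and 8.93% of 6315 genes tested were. For Chrna1 the interval of that ratio, 1.45 (-1.12 to 6.79), includes 0, and its ASC level there is among those not read as expression. Over all kept barcodes the direction of Runx1 turned with the filter: at the limit of 1% mitochondrial UMIs that the study's methods give, which left no contractile-low QSC cell, its log2 ratio was 1.81 and not -0.93.

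Levels by cluster gave a finer order, for the 13 combinations of library and cluster with at least 20 barcodes. The members were left out of the genes used for clustering. Cluster 9, led by Cdkn1c, Myog and Mymk, held 46 ASC barcodes and had the highest level of 3 receptor subunits. Chrna1 stood there at 407 CPM (357 to 461), apart from the next, cluster 4 at 224 CPM (207 to 243) and cluster 1 at 207 CPM (187 to 229), which overlapped each other. Cluster 4 was led by the cell cycle genes Rrm2 and Pclaf, and cluster 1 by Bgn, C1qtnf3 and Acta2. Leading genes were taken over both libraries together. The 71 QSC barcodes of cluster 4 are not read as cycling. The whole QSC library had no Pclaf UMI and 25 UMIs over the 8 markers listed for cycling cells. For Chrna1, the QSC clusters 0, 4 and 2 followed at 93.3, 77.0 and 76.4 CPM, with ASC cluster 3 at 82.4 CPM among them, and these 4 overlapped. Cluster 3, led by Mt3, Cgref1 and Rrad, mixed 218 contractile-high with 15 contractile-low ASC barcodes. Its 54 Chrna1 UMIs, against 38 in all contractile-high ASC barcodes, lay in 19 barcodes with up to 9 in a single barcode. That level is therefore not read as one of contractile-high barcodes. The remaining groups stood at 21.7 CPM or below.

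Chrnd was at 39.7 CPM (25.4 to 59.0) in cluster 9, apart from 19.4 CPM (14.5 to 25.39) in cluster 4. Chrng was at 26.4 CPM (15.1 to 42.9) in cluster 9, which overlapped 6.11 CPM (1.66 to 15.6) in cluster 3 and was apart from 4.76 CPM (2.53 to 8.14) in cluster 4. Of the 42 ASC UMIs of Chrng, 16 came from the 46 barcodes of cluster 9. Both genes had 0 UMIs in each of the 4 QSC groups. Chrnb1 had no such peak: QSC cluster 4 at 100 CPM (53.3 to 171), ASC cluster 9 at 92.6 CPM (69.9 to 120), QSC cluster 2 at 85.1 CPM (63.0 to 113) and ASC cluster 1 at 62.2 CPM (51.4 to 74.6) overlapped in turn.

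Of the 32 QSC UMIs of Musk, 25 lay in cluster 2, which held 238 of the 516 kept QSC barcodes. QSC cluster 2, led by Fosb, Pxdc1 and Maff and holding Sdc4 and Chodl, known from quiescent satellite cells, among its leading genes, stood at 43.4 CPM (28.1 to 64.1) on 25 UMIs, and QSC cluster 0 at 35.0 CPM (7.22 to 102) on 3. The highest ASC group, cluster 1, stood at 9.11 CPM (5.31 to 14.6), apart from QSC cluster 2. QSC cluster 4 had 1 UMI, 7.70 CPM (0.20 to 42.9). Both QSC cluster 0 and QSC cluster 4 overlapped QSC cluster 2. Ncam1 stood at 239, 227, 210 and 198 CPM in QSC cluster 4, ASC cluster 1, QSC cluster 2 and QSC cluster 0, which overlapped, and then apart from them at 85.3 and 84.3 CPM in ASC clusters 4 and 9. Runx1 was highest in QSC cluster 2 at 175 CPM (143 to 213), which overlapped ASC cluster 1 at 137 CPM (120 to 155). The macrophage/monocyte-like barcodes had 71.5 CPM (50.9 to 97.8) of Runx1, a gene of blood cell development, in the ASC library. In the QSC library they had 306 CPM (147 to 563), on 10 UMIs in 16 barcodes. Part of the sum of both libraries thus came from cells that are not muscle: 11 of 146 QSC UMIs and 40 of 587 ASC UMIs lay in non-muscle barcodes.

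Gadd45a was highest in QSC cluster 2 at 337 CPM (291 to 388), followed by ASC cluster 9 at 286 CPM (245 to 332) and QSC cluster 0 at 280 CPM (179 to 416). ASC cluster 1 stood at 238 CPM (216 to 261). ASC cluster 4 was lowest of all 13 groups at 33.7 CPM (27.2 to 41.3). Cluster 9 overlapped QSC cluster 2, cluster 1 was below it by intervals that did not meet, and cluster 4 was below all of these. Chrna1, by contrast, stood at the same level in clusters 4 and 1 within its intervals.

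**Figure D4:**
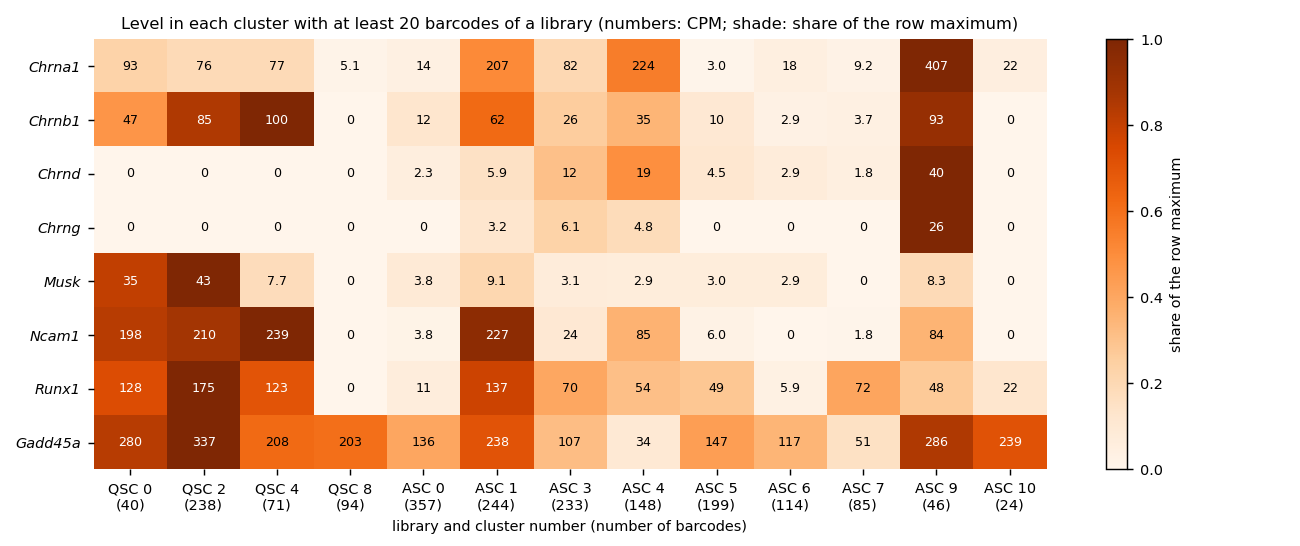
Level of each member (rows) in UMIs per 1000000 (printed numbers, CPM) in the 13 combinations of library and cluster with at least 20 barcodes (columns, number of barcodes in parentheses), shaded by the share of the highest value in the row. Chrna1, Chrnd and Chrng peak in ASC cluster 9 at 407, 39.7 and 26.4 CPM, Musk in QSC cluster 2 at 43.4 CPM, and Gadd45a is lowest in ASC cluster 4 at 33.7 CPM.

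Whether the receptor genes went with Myog, the myogenic factor known for binding E-boxes of such genes, was examined within the contractile-low ASC cells, so that library and sort were shared. Myog UMIs were present in 213 of these cells (Myog-positive) and absent from 204 (Myog-negative). Of the ASC macrophage/monocyte-like barcodes 24.7% (21 of 85) also held a Myog UMI, at 53.2 CPM (35.6 to 76.4), so the names say only whether a UMI was found, and neither group is read as expressing or lacking Myog. Chrnd stood at 5.75 CPM (2.76 to 10.6) in Myog-negative and 23.6 CPM (18.9 to 29.3) in Myog-positive cells, a log2 ratio of 2.04 (1.09 to 3.15). Chrng stood at 4.02 and 9.57 CPM, a log2 ratio of 1.25 (0.05 to 2.67). These were the 2 members higher by 2-fold or more, against 3.19% of 9361 genes tested, and no member was lower by that much, against 3.71%. Chrna1 had 209 CPM (188 to 231) without and 267 CPM (251 to 285) with Myog, for a log2 ratio of 0.36 (0.18 to 0.54), and Chrnb1 was at 52.3 CPM in both, a log2 ratio of 0.00 (-0.37 to 0.38). Ncam1 and Runx1 were lower in Myog-positive cells, by log2 ratios of -0.63 (-0.85 to -0.42) and -0.71 (-0.98 to -0.44), from 181 to 117 CPM and from 116 to 70.9 CPM. Musk, at -0.17 (-1.30 to 1.04), and Gadd45a, at -0.16 (-0.39 to 0.06), had intervals that include 0. The Myog-positive cells were deeper, with a median of 13177 UMIs against 5323.5, and the part of depth in these ratios was not tested beyond the restriction to cells of at least 5000 UMIs, chosen after the data were seen, under which Chrnd stood at 1.82 and Chrng at 1.03.

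Splitting the Myog-positive cells by level, also chosen after the data were seen, separated the genes further. In the 86 cells with at least 500 CPM of Myog (median 11245 UMIs), Chrna1 was at 370 CPM (334 to 410), Chrnb1 at 82.0 CPM (65.3 to 102), Chrnd at 29.6 CPM (19.998 to 42.3) and Chrng at 20.7 CPM (12.8 to 31.7). All 4 subunits were above the Myog-negative cells there, by intervals that did not overlap. Myog itself stood at 4716 CPM in those 86 cells. In the 127 cells with a lower Myog level (median 18086 UMIs), where Myog was at 92.4 CPM (80.997 to 105) against 53.2 CPM (35.6 to 76.4) in the macrophage/monocyte-like barcodes, Chrna1 at 226 CPM (208 to 245), Chrnb1 at 40.5 CPM (33.1 to 49.1) and Chrng at 5.11 CPM (2.72 to 8.74) overlapped the Myog-negative cells, and Chrnd at 21.2 CPM (16.0 to 27.7) did not. Gadd45a was not ordered with Myog: 147 CPM (129 to 166) in Myog-negative cells, 86.9 CPM (75.8 to 99.2) below 500 CPM and 241 CPM (212 to 273) at 500 CPM or more. Ncam1 stood at 181, 122 and 105 CPM and Runx1 at 116, 69.2 and 75.1 CPM over the same order. Musk had 11, 11 and 9 UMIs, 6.32, 4.33 and 8.89 CPM, with intervals that overlapped. Of 7811 genes tested between the highest and the Myog-negative cells, 6.58% were at least 2-fold higher, as were Chrnd and Chrng, at 2.37 each on the log2 scale, and 10.1% at least 2-fold lower, as was no member.

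**Figure D5:**
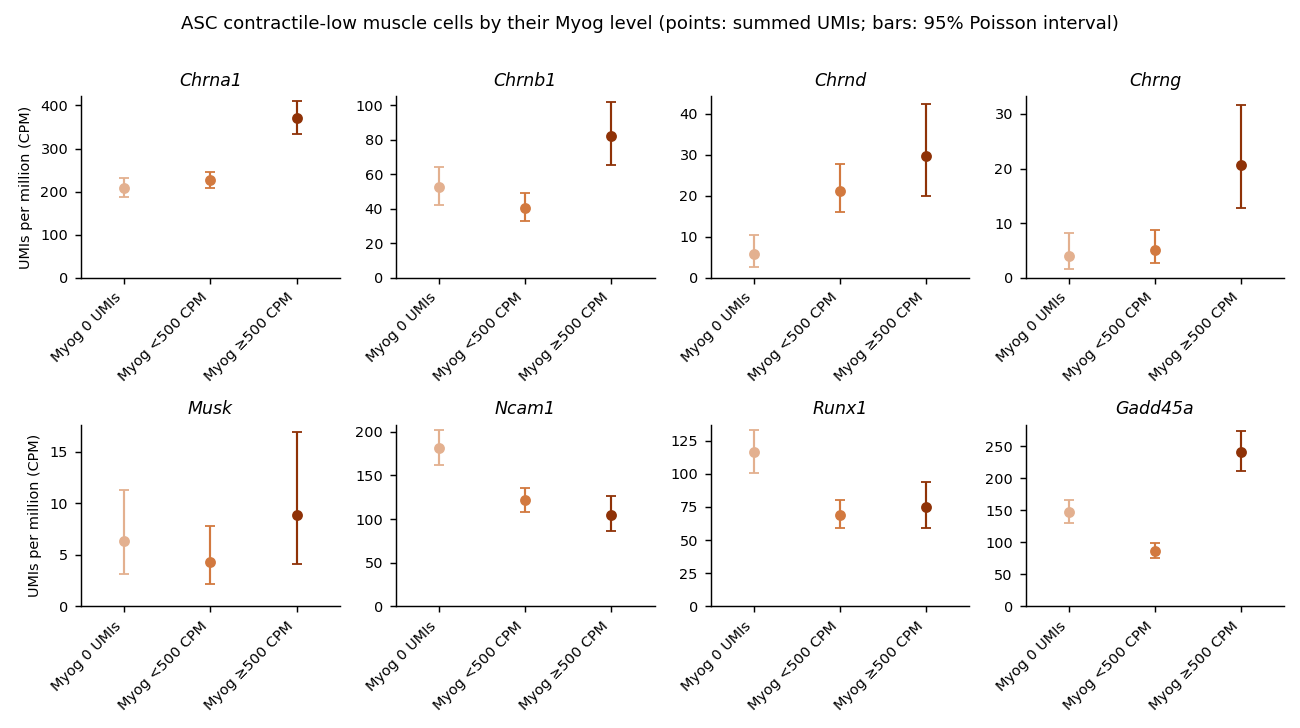
Level of each member in UMIs per 1000000 (y axis, CPM, one scale per gene) in contractile-low ASC cells with no Myog UMI (204 cells), with Myog below 500 CPM (127 cells) and with Myog at 500 CPM or more (86 cells), with 95% Poisson intervals. The 4 receptor subunits are highest in the last group (370, 82.0, 29.6 and 20.7 CPM), Ncam1 and Runx1 are highest in the first (181 and 116 CPM).

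The members were then taken in contractile-low cells that held Pax7, also a choice made after the data were seen. In the 58 such ASC cells without a Myog UMI, Chrna1 was at 200 CPM (166 to 239), against 117 CPM (81.4 to 162) in the 120 Pax7-positive QSC cells, with intervals that did not overlap. Against the 169 ASC cells with Myog and no Pax7 UMI, these 58 cells had Chrnd lower, on 3 UMIs, by a log2 ratio of -2.20 (-4.51 to -0.59). Chrng, on 2 UMIs, stood at -1.62, with an interval (-4.73 to 0.37) that includes 0. By their ratios these 2 members were 2-fold lower and no member was 2-fold higher, where 7.37% and 5.05% of 8264 genes tested were. Over all Pax7-positive contractile-low cells the log2 ratio of Chrna1, ASC over QSC library, was 0.98 (0.47 to 1.53), just short of 2-fold, and that of Musk was -3.38 (-5.05 to -1.91) on 6 ASC and 14 QSC UMIs. Musk and Gadd45a were 2-fold lower and no member was 2-fold higher, where 19.2% and 21.3% of 6541 genes tested were. Over Myog-negative contractile-low cells Chrna1 had a log2 ratio of 1.32 (0.95 to 1.72), Musk of -2.50 (-3.64 to -1.46) and Gadd45a of -1.11 (-1.36 to -0.85). Ncam1, at -0.25 (-0.52 to 0.02), had an interval that includes 0. Of the 6 members with at least 20 UMIs over those cells, Chrna1 alone was 2-fold higher and Musk and Gadd45a were 2-fold lower, where 16.4% and 20.5% of 8028 genes tested were. Chrnd, with no QSC UMI and 10 ASC UMIs at 5.75 CPM (2.76 to 10.6), was 1.61-fold higher against 3 QSC counts. The lower limit of its log2 ratio was 0.11, and the intervals of its levels, up to 4.39 CPM among QSCs, overlapped.

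The UMIs of the rarer subunits lay in few cells. Chrna1 was found in 309 ASC barcodes with up to 30 UMIs in one, and 268 of these were contractile-low cells. Chrnd was found in 73 ASC barcodes, of which 57 also held Chrna1 and 56 Myog, and Chrng in 34, of which 33 held Chrna1 and 26 Myog. These barcodes were deep, with medians of 23149 and 21946 UMIs, and the part of depth in these overlaps was not tested. Among QSCs Chrna1 was spread over 57 barcodes with at most 3 UMIs in any, and 2 of these held Myog. The single QSC UMI of Chrng came from a cell of 4172 UMIs in cluster 9 with 28 of the library's 29 Myog UMIs, 2 Chrna1 UMIs, 1 Chrnb1 UMI and no Pax7 UMI. Musk was found in 26 QSC barcodes, 24 of them contractile-low.

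Genes with the most similar levels were looked up over the 13 groups, by Pearson's r of log2(CPM + 10) among genes with at least 50 UMIs, which describes these groups only, since they share libraries and depth. For Chrna1 they were Nucks1 (r = 0.96), Sox4 and Hmgn2, for Chrnb1 Grb10 (0.97), Maged1 and Snai2, for Chrnd Plxna1 (0.93), Arhgdig and E2f8, and for Musk Osr2 (0.94), Fibin and Ctsf. For Ncam1 they were Igsf3 (0.99), Col3a1 and Crip2, for Runx1 Itgb1 (0.95), Gm11361 and Dnaja1, and for Gadd45a Pbxip1 (0.88), Ypel3 and Gtpbp2. No member was among the 3 nearest of another. Between members, r was highest for Chrnb1 with Ncam1, at 0.94, and Chrnd stood at 0.83 with Myog, whereas Musk and Ncam1 stood at 0.80 and 0.83 with Pax7. Chrng had 43 UMIs in all, below the minimum.

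Other genes of the junction were counted from a list of 22, of which 12 had at least 20 UMIs in contractile-low cells. Of these, 3 were at least 2-fold higher in the ASC library, 2 at least 2-fold lower and 7 in between. Among the 9968 genes tested there, 18.5% were higher and 22.6% lower by that much. Dok7, the adaptor that activates MuSK, was counted once among QSCs and 163 times among ASCs, with a log2 ratio of 4.70 (2.21 to 10.02), opposite to Musk itself. Lrp4, the agrin receptor, had 1 and 24 UMIs, with an interval that includes 0 (-0.68 to 7.30), and the transcription factor gene Etv4 had 0 and 56. Utrn, which encodes utrophin, was lower, at 50.8 and 14.6 CPM. Rapsn, whose product rapsyn anchors the receptors, was at 154 and 99.6 CPM, a log2 ratio of -0.63 (-0.90 to -0.34). The median ratio of genes with at least 20 UMIs in each group was -0.26 in these cells. In the Myog split Dok7 alone of this list was past 2-fold, higher in Myog-positive cells, as were 3.19% of 9361 genes tested.

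From a list of 18 further denervation genes, 11 had at least 20 UMIs in contractile-low cells. Of these 11, 3 were at least 2-fold higher in the ASC library, among them Myog and Sln. Another 5 were at least 2-fold lower (Hdac4, Hdac5, Fbxo32, Cdkn1a and Ampd3). Among all genes tested in these cells, 18.5% were higher and 22.6% lower by that much. Myog stood at 34.3 and 946 CPM, while Ampd3 stood at 104 and 12.3 CPM and the cell cycle inhibitor gene Cdkn1a at 617 and 252 CPM. The ubiquitin ligase genes of muscle wasting, Trim63 and Fbxo32, were at least 2-fold higher in contractile-high than in contractile-low ASC barcodes. No member was, and 15.5% of 10195 genes tested were. Among relatives of the members, Gadd45b was at 193 and 109 CPM and Gadd45g at 221 and 130 CPM in contractile-low cells, lower in the ASC library like Gadd45a but by less than 2-fold. Of the 15 relatives, 4 had at least 20 UMIs in those cells, and Runx2 alone was past 2-fold, at 2.36 and 7.18 CPM on 2 and 38 UMIs, a log2 ratio of 1.60 (-0.35 to 4.70). Schwann cells also carry Ncam1, and of the markers listed for them Sox10 and Cdh19 had 0 UMIs in the contractile-low cells of both libraries.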

How the data were processed

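Single-cell RNA libraries (10x 3′ chemistry) of 1 QSC and 1 ASC sample were analysed. The authors deposited raw UMI counts per gene and barcode. Per the labels they were made with Cell Ranger 7.1.0 on mm10, whereas the matrix header names 6.0.2. The annotation and the handling of strand are not given in the sources used here. From the counts, barcodes with at least 500 genes and at most 10% mitochondrial UMIs were kept. The study's own limit was 1%, tried as an alternative. Doublets were not removed and no caller was run. Kept barcodes of both libraries were merged and clustered in Seurat 5.3.0 (R 4.3.3) with the 8 members left out of the variable genes, 10 principal components and resolution 0.6. A cluster was named only from marker lists of cell types that are not muscle.

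UMIs were summed per class and scaled to CPM, with exact Poisson 95% intervals and exact conditional binomial intervals for ratios (Python 3.11.15, scipy 1.17.1). With 1 library per group no test was made. A log2 ratio of at least 1 or at most -1 was counted among genes with at least 20 UMIs over both groups. Against 0 UMIs the ratio was taken against 3 counts over the group. Shares have Clopper-Pearson intervals. The code was tested on simulated data with known ratios. The alternatives were other filters, scalings (edgeR 4.0.16 for TMM), weights of cells, cuts and resolutions. Genes named are the members, the 3 genes most similar to each, genes leading a cluster, cell type markers, and genes from lists of 22 junction, 18 denervation and 15 related genes. The members and lists were chosen with earlier results of these data known. Coordinates are from GENCODE M21 (GRCm38), in which 32158 of 32285 identifiers (99.6%) were found. Some genes of these lists are not reported here.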

Additional observations from a re-analysis of the deposited data

Results flagged for a closer look

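UMIs of 5 members were found in barcodes that the filters left out, at more than 3 counts, and are used in no comparison of the report. In the 250 QSC barcodes left out (median 655.5 UMIs) there were 4 UMIs of Ncam1, 6 of Runx1 and 28 of Gadd45a, at 21.7, 32.6 and 152 CPM. In the 182 ASC barcodes left out (median 717.5 UMIs) there were 19 UMIs of Chrna1, 5 of Chrnd, 16 of Ncam1, 13 of Runx1 and 18 of Gadd45a, at 116, 30.5, 97.6, 79.3 and 110 CPM. What these barcodes hold was not tested.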

How the results depend on the processing

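Over all kept barcodes, the 2 members lower by 2-fold or more became 0 at the 1% mitochondrial limit, 1 under median-of-ratios and 1 under TMM scaling, and 4 with equal weight per cell, and the 3 higher became 1 with equal weight and 1 without the 5% deepest barcodes. In contractile-low cells the 2 lower became 1 under median-of-ratios, TMM, equal weight and without the deepest barcodes, and the 3 higher became 1 in Myog-negative and 0 in Pax7-positive cells, restrictions chosen after the data were seen that also leave fewer cells. The 6 members lower in contractile-high ASC barcodes became 1 at the 1% limit, set against 16 contractile-low cells, where Runx1 turned from -1.46 to 0.52. For the other changes the cause was not tested. Of 108 recomputed counts 95 stayed within 1.5 times the reported count, and of 436 recomputed ratios and shares 351 stayed within the counting interval of the reported value, 84 left it and 1, past 2-fold as reported, changed sign. Ratios under 2-fold that changed sign are counted with the 84 where they left the interval, as did Runx1 over all kept barcodes (-0.93 to 1.81) and Gadd45a in contractile-high ASC barcodes (-0.08 to 0.50) and in the Myog split (-0.16 to 0.72). Musk stood between -3.38 and -2.13 in contractile-low cells and Chrna1 between 0.98 and 1.85. At the 1% limit 0 QSC and 16 ASC contractile-low cells were left, so the comparison of libraries within them and the Myog split gave no value there. No paired analysis was possible because each group has 1 library, and for the same reason no replicate could be left out. Depth limits Chrnd, Chrng and Musk most, with 107, 43 and 72 UMIs over both libraries.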
